A study of Mus musculus with 15 samples.

Results

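The RNAs described here are small nucleolar RNAs (snoRNAs), small Cajal body-specific RNAs (scaRNAs) and the noncoding host transcripts whose introns carry many of them. They were taken from the deposited gene table by symbol: Gas5, and names made of Snhg, Snora, Snord or Scarna and a number. A gene also needed at least 10 counts summed over the 15 libraries. This left 71 of 25239 genes, namely 27 box C/D snoRNAs, 23 box H/ACA snoRNAs, 3 scaRNAs and 18 host transcripts. Of the 135 symbols of this form, 34 had no count in any library and 30 had a total below the minimum. Just inside the limit lay Snord2 with 10 counts, Snora62 with 13 and Snhg9 with 14, and just outside it lay Snora3 with 9, Snord1a with 8.98 and Snora41 with 8.

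The libraries are RNA immunoprecipitations (RIP) from ST2, a mouse bone marrow stromal cell line, crosslinked with 1% formaldehyde. Arid5a, a protein known to bind and stabilise cytokine transcripts, was precipitated with its antibody, and mouse IgG2b served as the control antibody. Cells had been kept in medium or given IL-17 at 200 ng/mL for 3 h, which gave 4 IgG libraries in medium, 4 Arid5a libraries in medium, 3 IgG libraries with IL-17 (numbered 2, 3 and 4) and 4 Arid5a libraries with IL-17. All 4 groups share the same line and crosslinking, and the labels name no genetic change. The labels do not say that libraries of a group came from separate cultures, so p-values measure the spread between these libraries, which may be technical. No library of unprecipitated RNA was analysed here, so more precipitation of an RNA and more of that RNA in the lysate cannot be told apart.

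Box C/D snoRNAs guide 2′-O-methylation of ribosomal and spliceosomal RNA together with fibrillarin, and box H/ACA snoRNAs guide pseudouridylation together with dyskerin. ScaRNAs carry the same boxes but reside in Cajal bodies, where they guide modification of the small nuclear RNAs of the spliceosome. Most of these RNAs in mammals are cut out of the introns of other genes, often genes for ribosomal proteins and translation factors. The spliced exons of the Snhg genes and Gas5 code for no conserved protein, and several of these transcripts are degraded by nonsense-mediated decay when they are translated. A stromal cell, like any growing cell, is expected to contain all these classes.

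Depth ranged from 939139 to 5713913 deposited counts per library, and the 71 RNAs made up 0.103% to 0.521% of them. The 8 stromal markers checked summed to 10455 to 16507 counts per 1000000 (CPM) in each library, led by Col1a1 and Col1a2, against 20.5 to 91.0 CPM for 12 markers of other cell types. Olfactory and vomeronasal receptor genes, silent in most tissues, summed to 1986 to 3090 CPM in the IgG libraries in medium and to 3234 to 4776 CPM in the Arid5a libraries in medium. With IL-17 they summed to 2381 to 3371 CPM and 1408 to 4062 CPM, overlapping ranges, and their part in the results was not tested. Of the 71 RNAs, 39 passed the filter on low counts and were tested: 9 box C/D, 14 box H/ACA, 2 scaRNAs and 14 host transcripts. No untested member had more than 21 counts in any library. The scaling used, TMM, left 5394 well-expressed genes at median log2 folds of −0.19 in medium and 0.15 with IL-17 for Arid5a against IgG, 0.34 for the change between these, and 0.30 and −0.04 for IL-17 within the Arid5a and IgG libraries.

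Fragment length moved with the groups. The ratio of deposited counts to deposited FPKM (fragments per kilobase of model and library size) gives the length over which the authors' software let fragments start, and the gene model length minus that gives an implied mean fragment length. It was 187 to 233 nt in the IgG libraries in medium, 185 to 199.5 nt in the Arid5a libraries in medium and 176 to 248 nt in the IgG libraries with IL-17. In the Arid5a libraries with IL-17 it was 236 to 312 nt, longer on average (274 ± 32.8 nt, SD, n = 4) than in each other group. Box C/D members have gene models of 62 to 221 nt, box H/ACA members 101 to 198 nt and scaRNAs 118 to 275 nt, so most are shorter than these fragments. For 43 members FPKM was listed at 0 in a library that had counts, and for 17, all box C/D of 62 to 88 nt, in every library that had counts.

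Of the 53 snoRNAs and scaRNAs, 51 lie inside another gene model, so without a stated strand and read rule their reads cannot be fully told apart from those of unspliced host RNA. All 18 host transcripts overlap another gene model too. The exceptions among the small RNAs were Snord118, the U8 snoRNA, and Snord13, which have genes of their own.

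The classes differed in how their summed level ran across the groups. Box C/D snoRNAs summed to 2698, 3933, 4271 and 2254 CPM in the 4 IgG libraries in medium and to 2218, 1513, 1375 and 2082 CPM in the 4 Arid5a libraries in medium. With IL-17 they summed to 2088, 1324 and 1715 CPM in the IgG libraries and to 426, 466, 985 and 1140 CPM in the Arid5a libraries. The IgG libraries in medium thus lay above all others, and the Arid5a libraries with IL-17 lay below all others. The pair with the lowest sums, Arid5a IL-17 libraries 1 and 2, also had the longest implied fragments, 287 and 312 nt.

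ScaRNAs ran the other way. They summed to 66.8 ± 29.5 CPM (SD, n = 4) with IgG in medium and to 313 ± 91.1 CPM (SD, n = 4) with Arid5a in medium. With IL-17 the sums were 98.5 ± 16.8 CPM (SD, n = 3) and 323 ± 195 CPM (SD, n = 4). Every Arid5a library lay above every IgG library. Scarna13 held 88.6% of the scaRNA counts and Scarna6 held 11.1%, so this sum is nearly that of Scarna13 alone.

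Host transcripts differed less between groups, with 567 ± 112 CPM for IgG in medium, 425 ± 53.1 for Arid5a in medium, 483 ± 52.4 for IgG with IL-17 and 437 ± 21.2 for Arid5a with IL-17 (SD, n = 4, 4, 3 and 4). Box H/ACA snoRNAs summed to 472 ± 299, 323 ± 87.1, 158 ± 66.5 and 137 ± 81.0 CPM in the same order. The wide spread with IgG in medium came from libraries 2 and 3, at 664 and 789 CPM, against 229.99 and 204 CPM in libraries 1 and 4.

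**Figure D1:**
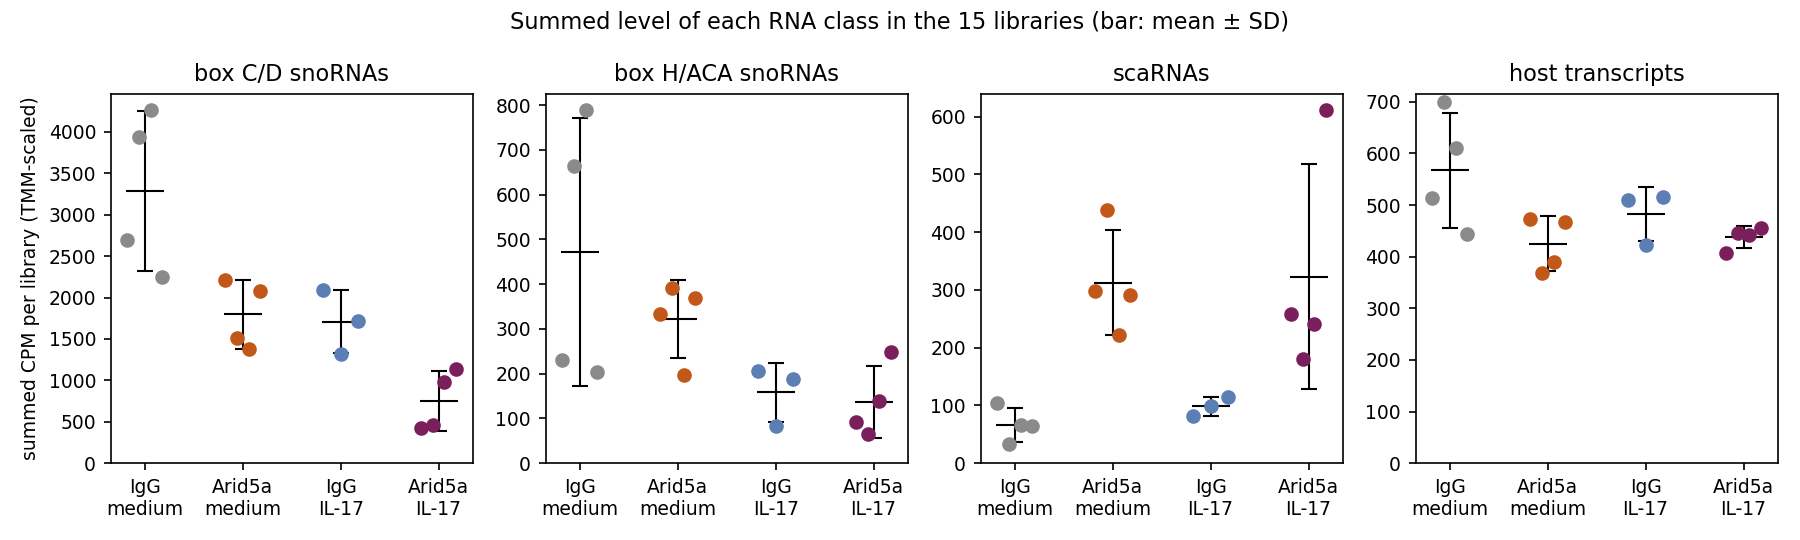
Summed CPM of the members of each class, 1 point per library, with the mean and SD of each group as bars. Box C/D sums in the 4 Arid5a libraries with IL-17 (426 to 1140 CPM) sit below all other libraries, while scaRNA sums are higher in every Arid5a library than in every IgG library.

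Enrichment with Arid5a in medium was found for 2 of the 39 tested members, both higher, and for none lower. Over all 17835 genes tested, 0.628% passed the same threshold, an adjusted p under 0.05 in edgeR's quasi-likelihood test with Benjamini-Hochberg adjustment, 0.0561% as higher and 0.572% as lower. The members were Scarna13 and Snora43. At an unadjusted p under 0.05, 4 members were higher and 14 lower, beside 12.8% of all genes in either direction. DESeq2 called 3 of the 14 members to which it gave an adjusted p, Scarna13 as higher and Snhg4 and Snord22 as lower. It called 327 of 6078 genes in all.

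Scarna13 is a scaRNA with a gene model of 275 nt at chr12:105031075-105031349 (GRCm38.p6, the mm10 assembly), inside the host gene Snhg10. It stood at 86.5, 30.3, 49.8 and 53.8 CPM in the IgG libraries in medium and at 248, 392, 201 and 247 CPM in the Arid5a libraries in medium. With IL-17 it stood at 71.3, 80.9 and 89.5 CPM with IgG and at 226, 163, 224 and 578 CPM with Arid5a. All 8 Arid5a libraries lay above all 7 IgG libraries; of all genes tested, 5.00% in medium and 5.30% with IL-17 had every Arid5a library above every IgG library. Only Arid5a IL-17 library 4 stood apart from its group.

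The log2 fold of Scarna13 with Arid5a against IgG was 2.24 ± 0.42 (SE) in medium, with an adjusted p of 0.0459 in edgeR. With IL-17 it was 1.89 ± 0.45 with an adjusted p of 0.269, so only the first passed the threshold. The difference between the folds was −0.35 ± 0.59 with an adjusted p of 0.808. The direction was the same in all 28 alternative fits of the medium comparison, but the adjusted p ran from 3.35e-05 to 0.192 and passed in 10 of them. It passed without IgG medium library 1, Arid5a IL-17 library 2 or Arid5a IL-17 library 4, and missed without any other library, at 0.0523 to 0.192. With upper-quartile factors, library totals or TMM factors from well-expressed genes it was 0.107 to 0.132. With IL-17 the fold was 1.35 with an adjusted p of 0.0306 once Arid5a IL-17 library 4 was left out, and it passed in 4 of 28 alternative fits.

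On the scale of log2(FPKM + 1), which allows for the shorter space for fragments, limma gave Scarna13 a log2 fold of 2.36 with an adjusted p of 0.017 in medium and 2.46 with an adjusted p of 0.0133 with IL-17. A fit with the implied fragment length as a covariate, added after the data had been seen, gave 2.03 and 2.63 with adjusted p-values of 0.0336 and 0.0476 in edgeR. DESeq2 also called it in both, with adjusted p-values of 6.91e-05 and 0.0213.

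Scarna13 was also set against Rmrp, the RNA of the RNase MRP complex, whose gene model is likewise 275 nt long, a comparison chosen after the values had been seen. There were 3.93, 0.876, 1.30 and 2.06 counts of Scarna13 per 100 counts of Rmrp with IgG in medium and 10.2, 22.7, 19.2 and 15.1 with Arid5a in medium. With IL-17 the ratios were 6.16, 7.27 and 5.02 with IgG and 26.3, 34.9, 26.3 and 62.7 with Arid5a. Arid5a and IgG libraries did not overlap in either condition. The mean log2 ratios differed by 3.21 in medium and 2.53 with IL-17, given without a test, since the ratio was built after Scarna13 had been seen to separate the libraries. Rmrp itself had a log2 fold of −0.82 ± 0.28 in medium, with an adjusted p of 0.245 in edgeR.

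Scarna6, a scaRNA of 248 nt at chr1:87784571-87784818 inside Atg16l1, stood at 18.1, 0, 15.2 and 10.9 CPM with IgG in medium and at 49.2, 40.5, 21.4 and 42.5 CPM with Arid5a in medium. The 0 fell in the library with the fewest counts, where a count of 0 allows up to 3 counts or 3.37 CPM, counting error only. The groups did not overlap, and the log2 fold was 1.63 ± 0.41 with an adjusted p of 0.0614 in edgeR. With IL-17 it stood at 10.5, 16.8 and 25.8 CPM with IgG and at 32.9, 16.6, 17.8 and 32.8 CPM with Arid5a. These groups overlapped, and the log2 fold was 0.53 ± 0.44 with an adjusted p of 0.763. Scarna8, the other scaRNA, had at most 6.61 CPM and was not tested.

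Snora43 is a box H/ACA snoRNA of 139 nt at chr2:26637847-26637985 inside Snhg7. It stood at 0.883, 0, 1.81 and 3.20 CPM with IgG in medium and at 16.0, 14.5, 4.22 and 15.5 CPM with Arid5a in medium. Every Arid5a library was above every IgG library. The log2 fold was 2.90 ± 0.71 with an adjusted p of 0.047 in edgeR, resting on 0 to 10 counts per IgG library and 14 to 60 per Arid5a library. It passed the filter on low counts through the libraries where it is high, since no IgG library held more than 10 counts, so its having been tested depended on the difference.

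With IL-17, Snora43 stood at 1.07, 0.700 and 0.479 CPM with IgG and at 2.10, 1.82, 2.49 and 9.06 CPM with Arid5a. The groups again did not overlap, and the log2 fold was 2.20 ± 0.84 with an adjusted p of 0.431 in edgeR. The call in medium passed in 5 of 26 alternative fits that gave an adjusted p. It held without Arid5a IL-17 library 4, IgG IL-17 library 3, IgG IL-17 library 4 or IgG medium library 4, and missed without any other library, at 0.0588 to 0.218. The host Snhg7 had at most 9 counts in a library and was not tested.

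**Figure D2:**
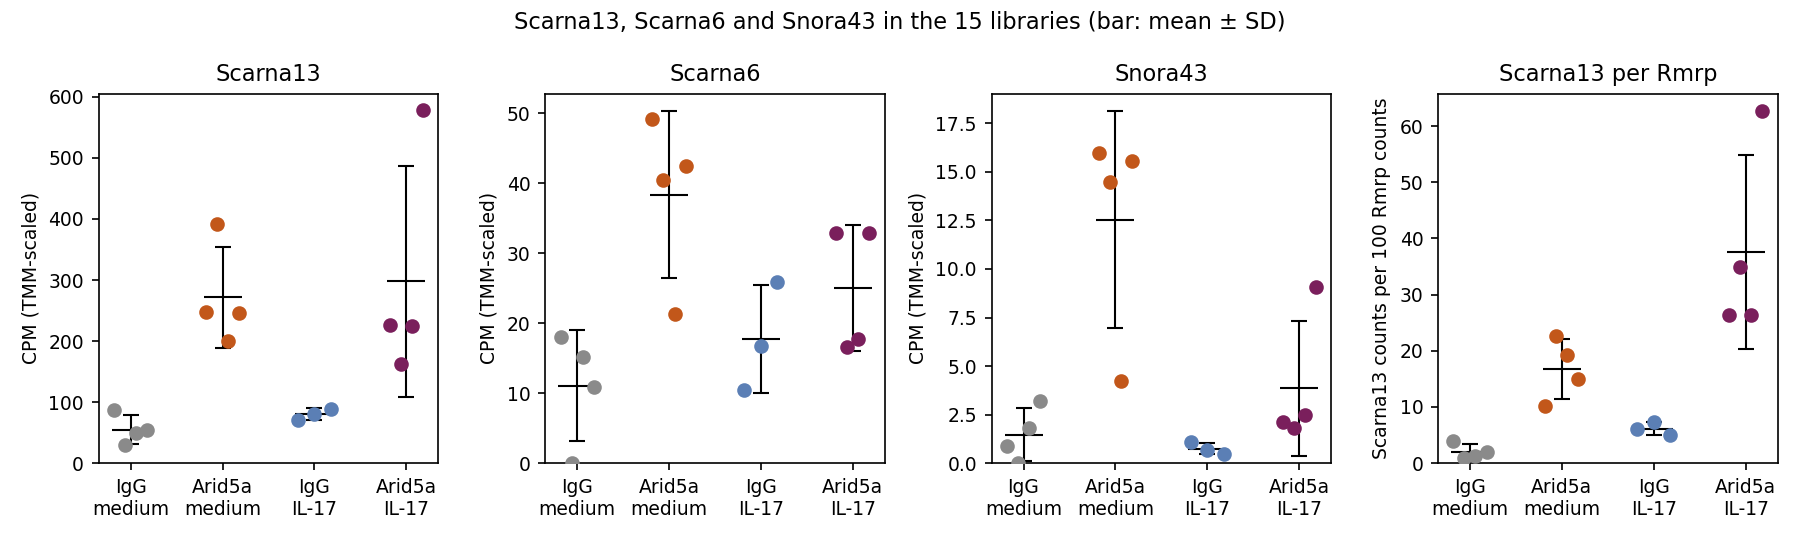
CPM of Scarna13, Scarna6 and Snora43 and counts of Scarna13 per 100 counts of Rmrp, 1 point per library, with the mean and SD of each group. Scarna13 is between 30.3 and 89.5 CPM in the 7 IgG libraries and between 163 and 578 CPM in the 8 Arid5a libraries, and Snora43 is separated in the same direction within each condition.

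Among the other box H/ACA snoRNAs no fold passed the threshold in either comparison with IgG. The class median of the log2 fold over the 14 tested was −0.19 in medium and −0.41 with IL-17, beside 0.04 and −0.01 over all genes tested. The folds in medium ran from −2.17 for Snora24 to the 2.90 of Snora43, with 9 of 14 below 0. With upper-quartile factors, library totals or TMM factors from well-expressed genes this count was 7 of 14. With IL-17, 11 of 14 were below 0, while 11 of 14 were above 0 when the implied fragment length was a covariate.

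Snora24, a 130 nt RNA at chr3:123507937-123508066, and its host Snhg8 were both far higher in IgG medium libraries 2 and 3 than elsewhere. Snora24 stood at 40.0, 432, 425 and 67.9 CPM with IgG in medium and at 59.0, 69.0, 28.9 and 53.3 CPM with Arid5a in medium. Snhg8 stood at 30.9, 162, 107 and 29.8 CPM with IgG in medium and at 37.8, 23.5, 26.8 and 38.6 CPM with Arid5a in medium. The snoRNA and its host were thus high in the same pair of IgG libraries, and the Arid5a values lay within or near the range of the other pair. The log2 folds were −2.17 ± 0.76 for Snora24, with an adjusted p of 0.262 in edgeR, and −1.30 ± 0.47 for Snhg8, with 0.253. Reads of the intron RNA and of its unspliced host are not told apart here.

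All 9 tested box C/D snoRNAs had a log2 fold below 0 with Arid5a against IgG, both in medium and with IL-17, and only Snord1b passed the threshold, with IL-17. Class medians were −1.16 in medium and −1.27 with IL-17. Snord14c, Snord33 and Snord118 passed the filter on low counts mainly through IgG libraries. Their highest counts in an Arid5a library were 10, 8 and 11, against 27, 18 and 46 in an IgG library. Their having been tested thus depended in part on the difference, and the signs and medians include them. Groups did not overlap, with Arid5a lower, for 5 of 9 in medium and 7 of 9 with IL-17, beside 4.05% and 4.39% of all genes tested. With IL-17, 1 of the 39 tested members passed, beside 0.0673% of all genes in either direction and 0.0112% as lower. At an unadjusted p under 0.05, 10 members were lower and 2 higher in that comparison, beside 8.95% of all genes in either direction.

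The class is dominated by a few RNAs: Snord15b held 49.6% of its counts, Snord22 22.4% and Snord15a 21.3%. Snord15b, the 145 nt U15B snoRNA at chr7:99479563-99479707 inside the ribosomal protein gene Rps3, stood at 1376, 1386, 1596 and 1040.5 CPM with IgG in medium and at 1113, 686, 768 and 1148 CPM with Arid5a in medium. With IL-17 it stood at 1126, 740.0 and 906 CPM with IgG and at 219.9, 244, 544 and 633 CPM with Arid5a. The groups overlapped in medium but not with IL-17. The log2 folds were −0.54 ± 0.33 in medium and −1.17 ± 0.36 with IL-17, with adjusted p-values of 0.539 and 0.381 in edgeR.

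Snord22, the U22 snoRNA from an intron of Snhg1, stood at 551, 1308, 1379.6 and 529.7 CPM with IgG in medium and at 426, 420.5, 252 and 425 CPM with Arid5a in medium. With IL-17 it stood at 412, 259 and 339 CPM with IgG and at 81.6, 78.6, 179 and 221 CPM with Arid5a. Arid5a libraries were below IgG libraries in both conditions without overlap. The log2 folds were −1.30 ± 0.42 and −1.27 ± 0.45, with adjusted p-values of 0.224 and 0.448 in edgeR. Snhg1, the spliced host, had folds of −0.30 and 0.02.

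Snord1b, a 77 nt RNA at chr11:116674147-116674223 from an intron of Snhg16, stood at 24.8, 7.35 and 22.0 CPM with IgG after IL-17 and at 2.73, 3.42, 5.55 and 4.81 CPM with Arid5a after IL-17. These groups did not overlap, and the log2 fold was −2.13 ± 0.44 with an adjusted p of 0.0491 in edgeR. In medium it stood at 20.1, 38.2, 51.6 and 16.0 CPM with IgG and at 11.7, 8.67, 14.2 and 14.0 CPM with Arid5a, a log2 fold of −1.34 ± 0.40 with an adjusted p of 0.113. The call with IL-17 was lost with the implied fragment length as a covariate, where the fold was −1.01 with an adjusted p of 1. It held without IgG IL-17 library 3, Arid5a IL-17 library 4 or any of the 4 IgG medium libraries, and missed without any other, at 0.054 to 0.409.

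The other box C/D folds in medium ranged more widely. They were −2.50 ± 0.90 for Snord14c, −1.95 ± 0.86 for Snord118, −1.16 ± 0.46 for Snord1c, −1.08 ± 0.36 for Snord15a, −0.96 ± 0.86 for Snord33 and −0.51 ± 0.21 for Snord17. None passed, at adjusted p-values of 0.21 to 0.677 in edgeR. With the fragment-length covariate the box C/D median was −1.28 in medium and −0.41 with IL-17.

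Over the 25 tested snoRNAs and scaRNAs, longer gene models went with higher folds with Arid5a. Spearman's rho between length and log2 fold was 0.51 in medium and 0.58 with IL-17, given as a description over RNAs that share the same libraries. The relation was not particular to Arid5a against IgG. For IL-17 against medium rho was 0.45 within the Arid5a RIP and 0.38 within the IgG RIP, and for the change it was −0.03. Against IgG, the 4 RNAs under 100 nt had a median log2 fold of −1.25 in medium, the 14 of 100 to 150 nt −0.52 and the 7 above 150 nt 0.53. With IL-17 these medians were −1.60, −0.80 and −0.17. The called Scarna13 is the longest RNA of this set, and the scaRNA Scarna6 is the next. The 4 RNAs under 100 nt are all box C/D snoRNAs, so length and class cannot be told apart in this relation.

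**Figure D3:**
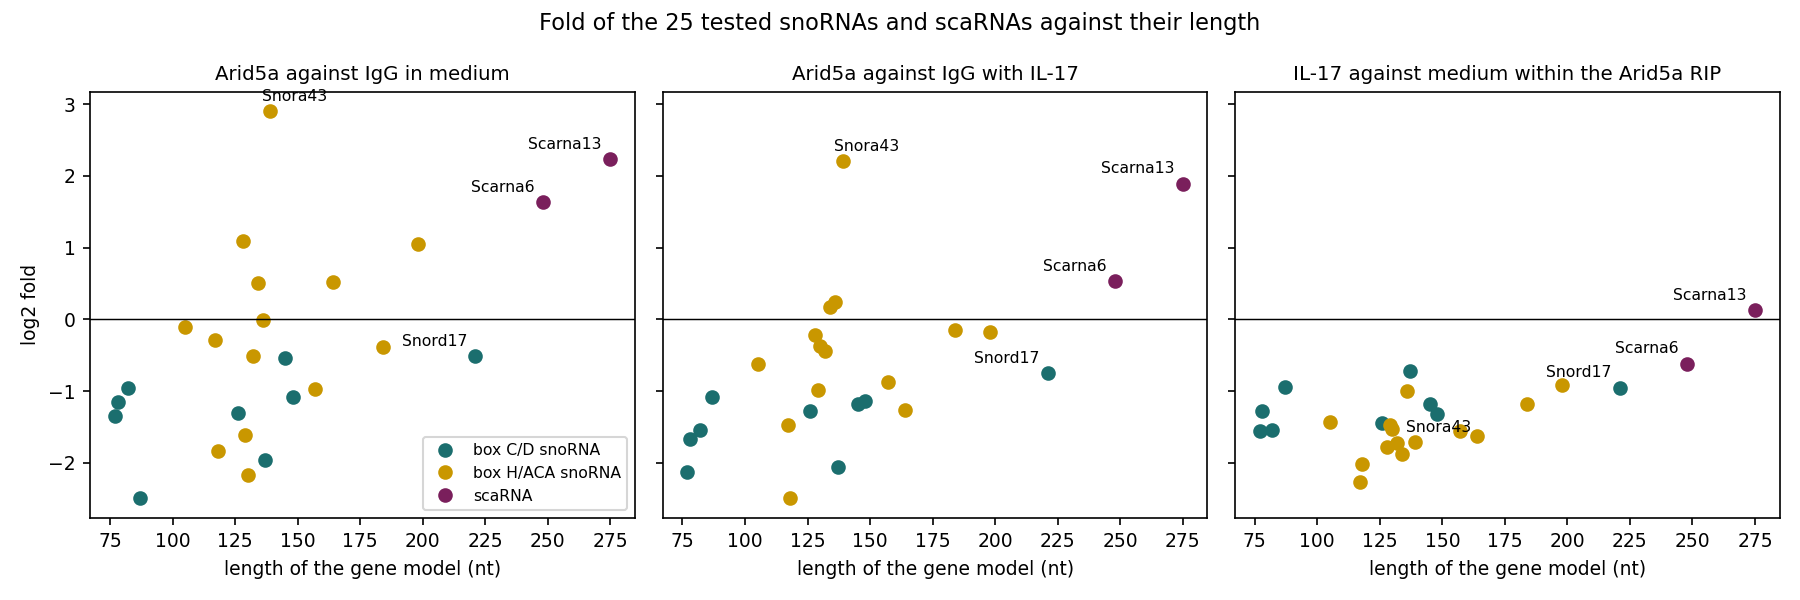
Log2 fold of the 25 tested snoRNAs and scaRNAs against the length of the gene model in nt, 1 point per RNA, with a panel for each comparison. In medium the median fold is −1.25 under 100 nt, where all are box C/D snoRNAs, and 0.53 above 150 nt, with Scarna13 at 275 nt and 2.24.

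Among the 18 host transcripts, 14 were tested and none passed in either comparison with IgG. The median log2 fold was 0.02 in medium and 0.25 with IL-17. At an unadjusted p under 0.05 4 of the 14 hosts were lower in medium and 1 was lower with IL-17, beside 12.8% and 8.95% of all genes in either direction. The transcript of Arid5a itself had log2 folds of −0.07 ± 0.37 and −0.17 ± 0.38.

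Gas5, a growth-arrest transcript whose introns carry box C/D snoRNAs and which can bind the glucocorticoid receptor, held 39.7% of the host counts. It lies at chr1:161034601-161038539. It stood at 246, 289, 268 and 173 CPM with IgG in medium and at 207, 141, 152 and 209 CPM with Arid5a in medium. With IL-17 it stood at 251, 165 and 266 CPM with IgG and at 102, 122, 135 and 179 CPM with Arid5a. Values overlapped in both conditions, and the log2 folds were −0.45 ± 0.18 and −0.76 ± 0.19, with adjusted p-values of 0.277 and 0.14 in edgeR.

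Snhg18, the next most abundant host transcript, had log2 folds of 0.00 and 0.45. Snhg4, the host of Snora74a, had −0.93 ± 0.28 in medium with an adjusted p of 0.123 in edgeR and 0.23 with IL-17. Snhg12 and Snhg16 had 0.88 ± 0.58 and 0.49 ± 0.56 in medium and 0.64 and 0.86 with IL-17. Snhg3 had 0.05 and −0.08. Snhg6, with at most 12 counts in a library, Snhg7 and Snhg10 were not tested.

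Many snoRNA host genes start transcription at a C followed by a run of pyrimidines, the 5′ terminal oligopyrimidine (TOP) feature that ties translation to growth signals. The start regions of the hosts are shown because this feature is what the class is best known for and the hosts did not move together. RefSeq start regions (GRCm38.p6) were read for 16 of the 18 hosts, 18 regions in all. Snhg4 and Snhg6 were left out of the host set, so their starts were not searched, and the share for hosts covers only those kept. The background was all regions of the table and was not cut in the same way, so the shares are given as a description without a test. From each region 30 bases were read, 10 before to 20 after the annotated start. Capitals mark CTTTC or CTTTT on the transcribed strand.
Gas5 (chr1:161035156-161035185, plus strand): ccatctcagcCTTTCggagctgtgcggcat
Snhg5 (chr9:88522878-88522907, minus strand): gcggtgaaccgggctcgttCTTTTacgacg
Snhg12 (chr4:132308668-132308697, plus strand): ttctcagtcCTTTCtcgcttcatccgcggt
Snhg16 (chr11:116671650-116671679, plus strand): gcgcaagcgcgatctcgtcCTTTCcgaggt
Snhg1 (chr19:8723477-8723506, plus strand): tcttgtcggcctcatttttccttgttcggg
Snhg8 (chr3:123508317-123508346, minus strand): gttcagaagtctctttggctgcgatccgcc
The letters CTTTC or CTTTT were found in 6 of the 18 regions on the transcribed strand, or 33.3%, and in none on the other strand. Among all 32851 regions of the table the shares were 6.63% and 6.22%. Besides the 4 hosts above, Snhg9 and Snhg10 held them, and a second annotated Gas5 start did not. Only in the Gas5 region shown did the letters begin at the annotated start. In Snhg12 they began just before it, in Snhg5 and Snhg16 after it, and in Snhg9 and Snhg10 they lay wholly before it. A match describes the letters only, and the share is not one of starts with the TOP feature.

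Of the 5 comparisons, IL-17 against medium among the Arid5a libraries gave the most calls, 5 of the 39 tested members, 1 higher and 4 lower. All genes tested had 5.65% called, 4.84% as higher and 0.813% as lower. Changes of the RNA in the cells and in its precipitation cannot be told apart in this comparison. At an unadjusted p under 0.05, 18 members were lower and 1 was higher, beside 22.3% of all genes in either direction. These libraries are the same ones used above, so the comparisons are not independent.

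Snhg5, a host of box C/D snoRNAs at chr9:88521052-88522897, was the only member that rose. It stood at 20.2, 22.3, 22.9 and 21.8 CPM with Arid5a in medium and at 60.4, 84.3, 65.7 and 32.0 CPM with Arid5a after IL-17. The groups did not overlap, as for 10.7% of all genes with IL-17 higher, and the medium group was tight at 21.8 ± 1.15 CPM (SD, n = 4). The log2 fold was 1.48 ± 0.27 with an adjusted p of 0.00077 in edgeR.

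In the IgG libraries Snhg5 stood at 20.1, 56.2, 35.0 and 53.5 CPM in medium and at 32.3, 43.4 and 49.8 CPM after IL-17, a log2 fold of 0.06 ± 0.29. Against IgG, Snhg5 thus lay lower in medium, at −0.87 ± 0.28, and higher with IL-17, at 0.55 ± 0.29, with neither past the threshold. The test of this change gave 1.42 ± 0.40 with an adjusted p of 0.0699 in edgeR.

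The rise of Snhg5 within the Arid5a RIP passed in 25 of 28 alternative fits, leaving out each of the 15 libraries included. It missed on the FPKM scale, with a fold of 1.28 and an adjusted p of 0.0632 in limma. It also missed without Arid5a IL-17 libraries 1 and 2, at 1.19 with an adjusted p of 0.145, and with the fragment-length covariate, at 0.34 with an adjusted p of 0.999. Over all genes that covariate left 9 calls of the 1008.

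Gas5 had a log2 fold of −0.41 ± 0.18 with an adjusted p of 0.182 within the Arid5a RIP, where the covariate turned it to 0.25. The median over the 14 tested hosts was −0.07, beside −0.12 over all genes.

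**Figure D4:**
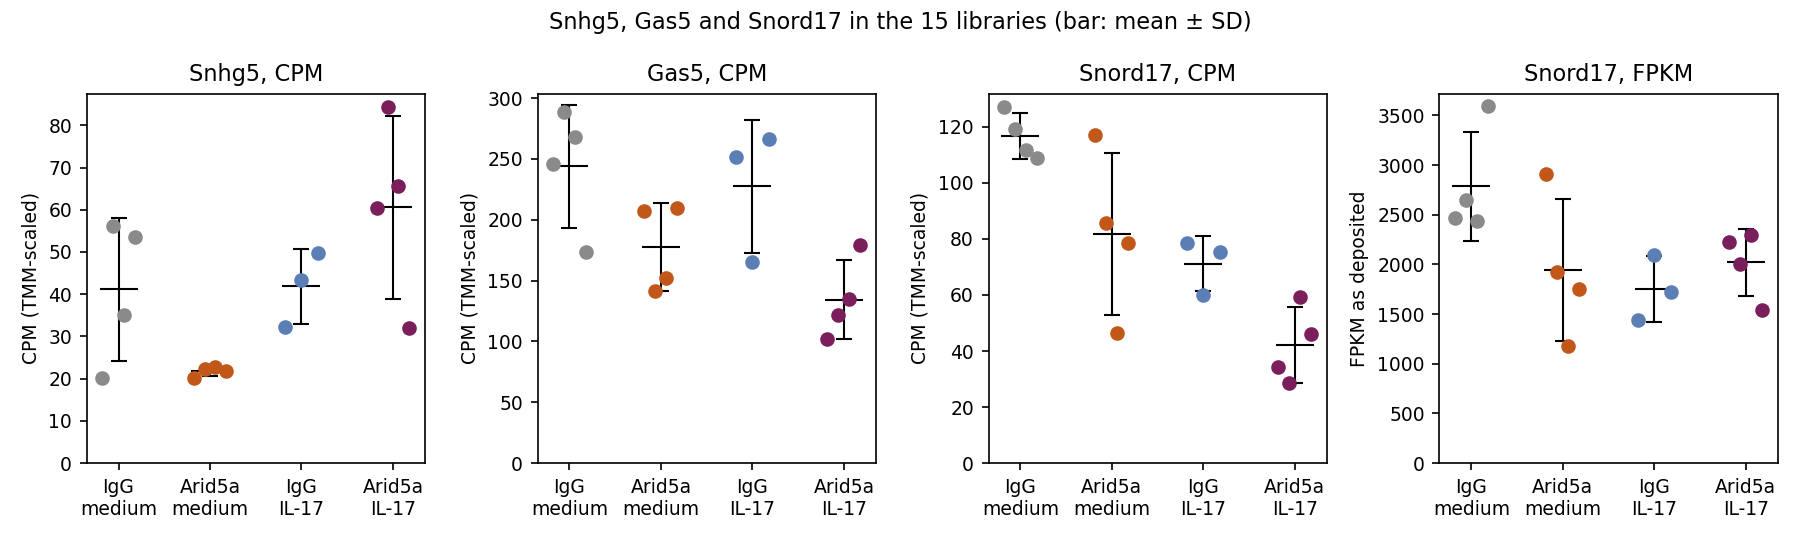
Snhg5, Gas5 and Snord17 in CPM and Snord17 in FPKM as deposited, 1 point per library, with the mean and SD of each group. Snhg5 is at 20.2 to 22.9 CPM in the Arid5a libraries in medium and at 32.0 to 84.3 CPM in those with IL-17, and in these libraries Snord17 has a lower mean with IL-17 on the CPM scale but not on the FPKM scale. In the IgG libraries Snord17 is lower with IL-17 on both scales, without overlap.

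The 4 members that fell within the Arid5a RIP were all small RNAs. Snord17, a 221 nt box C/D snoRNA at chr2:144265982-144266202 inside Snx5, stood at 117, 85.5, 46.4 and 78.5 CPM in medium and at 34.4, 28.7, 59.4 and 46.1 CPM after IL-17. The ranges overlapped, and the log2 fold was −0.95 ± 0.22 with an adjusted p of 0.0063 in edgeR. In FPKM, Snord17 was at 1942 ± 717 in medium and 2021 ± 341 after IL-17 (SD, n = 4 each). In the IgG libraries it was at 2787 ± 549.7 in medium (n = 4) and 1753 ± 328 after IL-17 (n = 3). On that scale the log2 fold within the Arid5a RIP turned to 0.11 with an adjusted p of 0.791 in limma. The adjusted p in edgeR was 0.058 without Arid5a IL-17 library 2 and 0.0616 without Arid5a medium library 1.

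Snora21, a 128 nt box H/ACA snoRNA at chr11:97781639-97781766 inside Rpl23, stood at 20.9, 25.2, 13.2 and 27.7 CPM in medium and at 2.94, 3.19, 6.51 and 13.0 CPM after IL-17. The log2 fold was −1.78 ± 0.46 with an adjusted p of 0.0162 in edgeR. Snora81, a 164 nt box H/ACA snoRNA at chr16:23110770-23110933 inside Eif4a2, stood at 9.45, 22.7, 10.8 and 10.1 CPM in medium and at 2.73, 5.24, 3.25 and 5.95 CPM after IL-17. Its log2 fold was −1.62 ± 0.49 with an adjusted p of 0.0437. Neither RNA overlapped between the groups.

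Snord1b, with the values given above, had a log2 fold of −1.56 ± 0.42 with an adjusted p of 0.0231 in edgeR, and its groups did not overlap. Leaving out 1 library ended the call in 5 of 15 cases for Snora21, with adjusted p-values of 0.055 to 0.0996, in 8 for Snora81, at 0.0529 to 0.218, and in 4 for Snord1b, at 0.0673 to 0.109. For Snora21 these were Arid5a IL-17 libraries 1, 2 and 3 and Arid5a medium libraries 2 and 4. For Snord1b they were Arid5a IL-17 libraries 1 and 2 and Arid5a medium libraries 3 and 4. For Snora81 they were all 4 Arid5a medium libraries, Arid5a IL-17 libraries 1, 2 and 3 and IgG IL-17 library 2.

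All 9 box C/D and all 14 box H/ACA snoRNAs tested had log2 folds below 0 in this comparison, with medians of −1.28 and −1.59. The range was −2.26 for Snora64 to −0.71 for Snord118. The abundant Snord15b and Snord22 had −1.18 ± 0.34 and −1.45 ± 0.43, with adjusted p-values of 0.0644 and 0.077 in edgeR. Groups did not overlap, with IL-17 lower, for 6 of 9 box C/D and 6 of 14 box H/ACA RNAs, beside 9.25% of all genes tested.

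With the fragment-length covariate none of the 5 calls passed, and the class medians were −0.35 for box C/D and 0.03 for box H/ACA, with 7 of 14 box H/ACA folds above 0. The overlap between fragment length and group is large here. All 4 Arid5a libraries with IL-17 had longer implied fragments (236 to 312 nt) than all 4 in medium (185 to 199.5 nt).

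**Figure D5:**
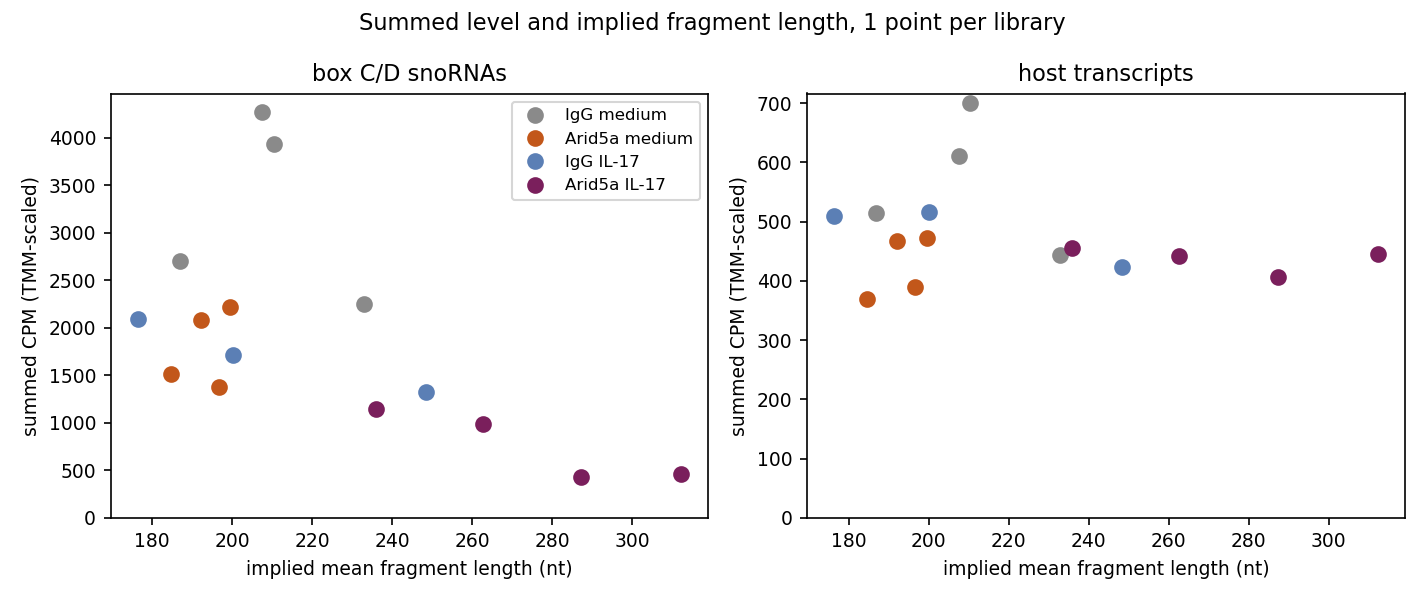
Summed CPM of box C/D snoRNAs and of host transcripts against the implied mean fragment length in nt, 1 point per library, coloured by group. The 2 libraries with fragments above 280 nt have the lowest box C/D sums, 426 and 466 CPM, whereas host sums lie between 369 and 699.7 CPM across the range.

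Within the IgG RIP, IL-17 against medium gave no call among the 39 tested members, beside 0.493% of all genes. At an unadjusted p under 0.05, 12 members were lower and none was higher, beside 11.1% of all genes in either direction. Of all genes, 0.258% were called higher and 0.235% lower at the adjusted threshold. DESeq2 called Snora24, Snord15a and Snord22 as lower, 3 of the 18 members to which it gave an adjusted p, and 315 of 8843 genes in all. The class medians were −0.77 for box C/D, with 9 of 9 below 0, and −1.31 for box H/ACA, with 12 of 14 below 0. Snord14c and Snord33 passed the filter on low counts mainly through IgG libraries in medium. Groups did not overlap, with IL-17 lower, for 4 of 9 box C/D and 3 of 14 box H/ACA RNAs and for no member with IL-17 higher, beside 3.32% and 4.27% of all genes tested. The lowest fold was −3.33 ± 0.92 for Snora24, with an adjusted p of 0.176 in edgeR. IgG medium libraries 2 and 3, at 432 and 425 CPM, were far above libraries 1 and 4, at 40.0 and 67.9 CPM. Every IgG library in medium lay above the IgG libraries with IL-17, at 30.8, 13.0 and 25.8 CPM. Implied fragments in the IgG libraries were 187 to 233 nt in medium and 176 to 248 nt with IL-17, overlapping ranges. With the fragment-length covariate these medians were −0.92 and −1.40.

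The change of Arid5a enrichment with IL-17, the difference between the folds against IgG in the 2 conditions, gave no call among the 39 members in edgeR. All genes tested had 0.976% called, 0.869% as higher and 0.107% as lower. At an unadjusted p under 0.05 there were 3 members, Snhg5 and Snhg4 higher and Snora81 lower, a smaller share than the 16.3% of all genes, and DESeq2 called none. The largest of these in size were −1.79 ± 0.72 for Snora81, with an adjusted p of 0.2 in edgeR, and 1.42 ± 0.40 for Snhg5. Snhg4 had 1.16 ± 0.41 with an adjusted p of 0.139. For the box C/D RNAs the median change was −0.24, and with the covariate it was 0.56.

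Transcripts of the proteins that package and mature these RNAs, from a list chosen with earlier results known, were called mainly within the Arid5a RIP after IL-17. Protein was not measured. Of the transcripts of the 4 core box C/D proteins, 3 rose. They were Nop56 by 0.65 ± 0.14, Nop58 by 0.70 ± 0.16 and Snu13 by 0.49 ± 0.14 on the log2 scale. Their adjusted p-values were 0.00378, 0.0061 and 0.0374 in edgeR. Fbl, the methyltransferase, had −0.06 ± 0.17. None of the transcripts of the 4 core box H/ACA proteins passed. Dkc1, the pseudouridine synthase, had 0.60 ± 0.19 and Gar1 0.59 ± 0.19, with adjusted p-values of 0.0503 and 0.0564, and Nhp2 and Nop10 had 0.41 and 0.11.

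In the same comparison 16 of 33 genes of the small-subunit processome and ribosome biogenesis rose and none fell, beside 4.84% of all genes called higher. Examples were Wdr43 at 0.95 ± 0.16, Nop14 at 0.89 ± 0.15, the nucleolar chaperone Npm1 at 0.67 ± 0.14 and nucleolin, Ncl, at 0.58 ± 0.11. Of 25 snoRNP assembly factors tested, 4 rose: Nolc1, Nvl, Dis3 and Xpo1. Of 15 nonsense-mediated decay factors 2 rose, Upf2 and Smg1. None of 12 Cajal body and snRNP assembly genes was called in any of the 5 comparisons in edgeR. They held 1, 0, 0, 1 and 1 genes at an unadjusted p under 0.05 in medium, with IL-17, for the change and within the Arid5a and IgG RIPs, beside 12.8%, 8.95%, 16.3%, 22.3% and 11.1% of all genes.

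These counts depended on the scaling. With TMM factors from well-expressed genes, 0 of 4 core box C/D protein transcripts, 2 of 33 biogenesis genes and 0 of 25 assembly factors were called. The median of the biogenesis genes went from 0.55 to 0.26. With the covariate none of these lists had a call.

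Few genes of these lists were called against IgG. Nsa2, a factor for the large ribosomal subunit, was higher with Arid5a in medium at 0.71 ± 0.16 and with IL-17 at 1.06 ± 0.17, with adjusted p-values of 0.0279 and 0.00697 in edgeR. Npm1 was lower in medium at −0.63 ± 0.14 and Etf1, the release factor, was lower in medium at −0.68. Snu13, Npm1, Wdr43 and Upf3a had a higher Arid5a enrichment with IL-17 than in medium. Among 15 other structured noncoding RNAs tested, Malat1 was lower with Arid5a in medium. Within the Arid5a RIP after IL-17, Malat1 and Neat1 rose, and Rmrp and Meg3 fell. For the change of enrichment, Malat1 and Neat1 were higher and Meg3 lower.

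Most of the calls on these list genes were lost under another scaling. For the change, no gene of the 17835 was called with upper-quartile factors, library totals, TMM factors from well-expressed genes or the covariate, so the 7 calls named for it were lost under each. With TMM factors from well-expressed genes no gene was called against IgG in either condition. Nsa2 then had 0.89 in medium and 0.94 with IL-17, with adjusted p-values of 0.0592 and 0.0697 in edgeR, and it passed with upper-quartile factors and library totals. With the covariate it missed in medium and passed with IL-17. Npm1, Etf1 and Malat1 passed in medium under none of these scalings, nor with the covariate, and kept their direction. Within the Arid5a RIP Malat1, Neat1, Rmrp and Meg3 passed under all 3 other scalings in edgeR and missed with the covariate, while Upf2 and Smg1 missed under all 3.

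Protein-coding hosts were set beside their small RNAs. Of the 29 protein-coding genes that hold members in their introns, 28 were tested and 10 rose within the Arid5a RIP after IL-17. Of all genes tested, 4.84% were called higher there. The median log2 fold of these hosts was 0.36, beside 0.30 for the 5394 well-expressed genes under the same scaling. Snx5 rose by 0.56 ± 0.16 where its Snord17 fell by 0.95, and Eif4a2 rose by 0.68 ± 0.14 where its Snora81 fell by 1.62. Rpl23 had 0.23 ± 0.14 and Rps3 0.22 ± 0.13, neither past the threshold, where Snora21 fell by 1.78 and Snord15b had −1.18. The difference between a host and its small RNA was not tested. With TMM factors from well-expressed genes 1 of the 28 was called and the median went from 0.36 to 0.05. None was called in the other 4 comparisons in edgeR, where 6 to 9 of 28 had an unadjusted p under 0.05, beside 8.95% to 16.3% of all genes.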

How the data were processed

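The authors deposited gene-level expected counts (7.74% of the values over all genes are not whole) and FPKM for 15 libraries. Per the labels' protocols the kit was SMART-Seq Stranded, and the submitters' processing notes name STAR 2.7.9, RSEM 1.3.1, DESeq2 1.36.0, R 4.3.0 and mm10. What each did, the annotation used and whether counting took strand into account are not given in the sources used here. Expected counts were rounded and fitted with edgeR 4.0.16 (R 4.3.3; quasi-likelihood, robust, TMM, filterByExpr by group, 4 group means over all 15 libraries, common biological coefficient of variation 0.341), adjusted over 17835 genes by Benjamini-Hochberg. CPM values are TMM-scaled. SE is the log2 fold divided by the square root of F. FPKM was tested with limma 3.58.1 on log2(FPKM + 1), and the deposited counts with DESeq2 1.42.0. Intervals and floors cover counting error only.

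Named genes are the called members, the 5 most abundant and the 2 with the smallest p per class and comparison, their hosts, core proteins, up to 4 called genes of each other list, 8 preset members, and Arid5a. A few others illustrate ranges. Members and lists were chosen with earlier results of these data known. Gene models and coordinates come from RefSeq GRCm38.p6, where 25041 symbols matched. Implied fragment length came from Jun, Sox4 and Hspa1b; the covariate was the median shift in effective length over 840 genes with at least 100 counts. The scripts were tested on simulated data. Alternatives were other scaling, filters, tools, single libraries left out, a replicate block, and, added after seeing the data, the covariate, a joint removal of 2 libraries and the Rmrp ratio. Same-numbered libraries correlated at −0.22 to 0.20 over 21 pairs, so numbers were not taken to pair them.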

Additional observations from a re-analysis of the deposited data

Results flagged for a closer look

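A library far from the others of its group, by Dixon's test, was found in 5 of the 93 groups of values tested, and chance gives about 1 in 20. Scarna13 stood at 578 CPM in Arid5a IL-17 library 4, against 163 to 226 CPM in the other libraries of that group. Snora43 stood at 9.06 CPM in the same library, against 1.82 to 2.49 CPM. Snora43 stood at 4.22 CPM in Arid5a medium library 3, against 14.5 to 16.0 CPM in the others. Snord22 stood at 252 CPM in that library, against 420.5 to 426 CPM. Snora81 stood at 22.7 CPM in Arid5a medium library 2, against 9.45 to 10.8 CPM.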

How the results depend on the processing

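Counts of called members moved with the settings, and the cause was not tested. In medium, where 2 were called, upper-quartile factors, library totals and TMM factors from well-expressed genes left 0. There was 1 with voom, the stricter filter, only the compared libraries, limma on FPKM, the fragment-length covariate, and without either pair of libraries (IgG medium 2 with IgG IL-17 4, or Arid5a IL-17 1 with 2). The member called was Snhg4, as lower, with voom, Scarna6 without the IgG pair, and Scarna13 in the rest of these. Leaving out single libraries gave 0 to 5, the highest without IgG medium 1. With IL-17, where 1 was called, upper-quartile factors, well-expressed TMM, the stricter filter, only the compared libraries and either pair removed gave 0, DESeq2 gave 2 and voom 3, and single libraries 0 to 3, the highest without Arid5a IL-17 4. For the change, with 0 called, voom gave 3, no filter 1, and single libraries 0 to 1. Within the Arid5a RIP, with 5 called, DESeq2 gave 11, voom 21, only the compared libraries 13, FPKM 0, the covariate 0, the IgG pair removed 10 and the Arid5a pair removed 0. Over all genes DESeq2 called 1350 of 17137, voom 7497 of 17835 and the fit on only the compared libraries 2977 of 15775, against 1008 of 17835. Single libraries gave 1 (without Arid5a IL-17 2) to 14 (without Arid5a IL-17 4). Within the IgG RIP, with 0 called, DESeq2 gave 3, only the compared libraries 1, the covariate 1 and single libraries 0 to 1. Snord17 within the Arid5a RIP reversed to 0.11 on the FPKM scale. Over all genes, calls in medium, with IL-17, for the change and within the Arid5a and IgG RIPs went from 112, 12, 174, 1008 and 88 to 8, 2, 0, 9 and 94 with the covariate. They went to 1, 3, 1, 102 and 45 on FPKM.

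With a replicate block 1 member was called in medium (Scarna6), 0 with IL-17, 0 for the change, 4 within the Arid5a RIP and 0 within the IgG RIP. Of 21 same-numbered pairs, 2 correlated above 0.1, with a median of −0.03, against 0.0071 for other pairs. A low correlation cannot show that libraries of equal number came from separate cultures, which the labels do not state.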
